A study of Rattus norvegicus with 26 samples.

Results

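The genes described here are a run of 6 neighbours on rat chromosome 7, between 12708015 and 12804283, selected for high levels in the LAP+/OC2+ sort of fetal hepatocytes. The rule took every row of the count files that lies wholly inside these bounds, which gave 7 of 32552 rows. It kept the 6 with the highest raw counts summed over the 16 libraries made before transplantation. The run was thus chosen by its CPM in the LAP+/OC2+ libraries, and every comparison with them below is a description without a test. The last gene kept had 150 summed counts, and the row left out, ENSRNOG00000061260, had 9. Positions are as deposited, on a genome build that the sources used here do not give.

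RNA was sequenced from rat liver in 26 libraries of 6 groups. Before transplantation, fetal hepatocytes purified with antibodies gave the sorts LAP+/OC2+, LAP+/OC2- and LAP+, and adult hepatocytes gave the group they are set against, with 4 libraries each. From transplanted adult rats, laser capture took fetal-derived colonies and the host liver next to them, 1 library each from the same 5 animals (numbered 242, 243, 246, 248 and 249). The labels call the libraries biological replicates, do not spell out LAP and OC2, and give no strain, age or way of choosing the captured regions. Sorted cells and captured tissue went into different library kits, so no level is compared across the 2 stages. Of the 32552 identifiers, 0 could be matched to a name in the reference table at hand. The cell type named in the labels could therefore not be checked against its markers, and the genes are called A to F in their order along the chromosome.

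Hepatocytes make most plasma proteins and carry out much of the metabolism of the adult liver. In the fetus the same organ also houses blood-forming cells, and hepatocytes mature around birth as that activity moves to the bone marrow. Genes that sit side by side, or inside an intron of a larger gene, can be used together or separately, and a count table shows how far their levels move together but not by what route. In bulk RNA, fewer cells of a type and less RNA per cell cannot be told apart.

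The run is nested (see the map of exons). Gene A (ENSRNOG00000009760) spans 12708015 to 12793711 on the minus strand, with 9 exon blocks of 2614 nt in all. Its most upstream exon block, at 12793611 to 12793711, lies far from the others, and genes B to E lie in between. Gene B (ENSRNOG00000012939) runs from 12742433 to 12762341 on the minus strand and has 44 exon blocks of 7387 nt. Gene C (ENSRNOG00000012562) runs from 12764993 to 12771310 on the plus strand, with 3165 nt of exon. Gene D (ENSRNOG00000012808) runs from 12771227 to 12779862 on the minus strand, with 2300 nt of exon. Gene E (ENSRNOG00000043044) runs from 12782491 to 12787750 on the plus strand, with 723 nt of exon. Gene F (ENSRNOG00000025293) stands outside gene A, at 12798868 to 12804283 on the plus strand, with 837 nt of exon.

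The exons of gene A share no base with those of the genes it encloses. Genes C and D share 84 nt of exon on opposite strands, 2.65% of the exon length of C and 3.65% of that of D. The span of gene A also overlaps that of a further row on the same strand, ENSRNOG00000013220 at 12541061 to 12741296, again with 0 nt of exon in common. No source used here gives the strand setting of the counting. Reads of the shared stretch, and unspliced reads of gene A that fall on exons of the enclosed genes, cannot be told apart from reads of those genes.

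**Figure D1:**
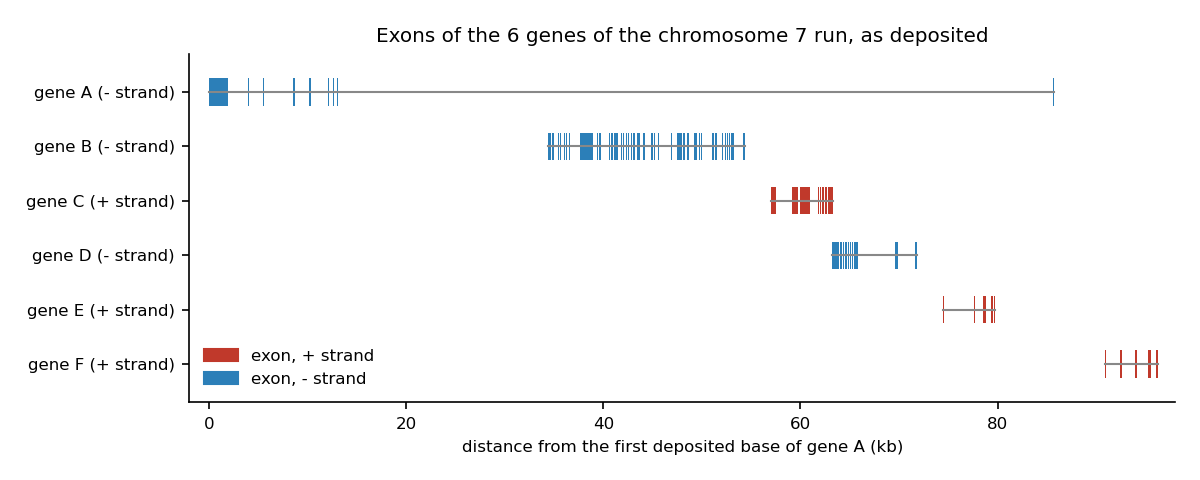
Exons (boxes) and spans (lines) of the 6 genes, by distance in kb from the first deposited base of gene A, with strand shown by colour. Genes B, C, D and E lie within the span of gene A, and gene F lies beyond it.

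The LAP+/OC2+ libraries differ from the others in their makeup. Totals ran from 7871347 to 8965763 counts in LAP+/OC2+ libraries, against 14163256 to 16874438 in the other 12 libraries before transplantation. Mitochondrial rows took 78.6%, 73.7%, 57.6% and 38.9% of the counts in LAP+/OC2+ libraries 1 to 4, against 4.11% to 10.3% in the other 12. Levels are given as counts per 1e6 counts (CPM) on library sizes scaled by TMM, a factor that sets most genes level between libraries. In LAP+/OC2+ libraries that factor ranged from 0.433 to 1.05. The median row differed by a log2 of -0.18 between LAP+/OC2+ and LAP+/OC2- under TMM and by -0.05 under RLE, another scaling. A count of 0, taken to allow 3 counts, leaves room for 0.345 to 0.773 CPM on this scale in LAP+/OC2+ libraries, 0.138 to 0.169 in LAP+/OC2-, 0.132 to 0.159 in LAP+ and 0.196 to 0.225 in adult ones. That limit covers counting error only.

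All 6 genes had their highest mean in LAP+/OC2+ cells. The 6 summed to 492 ± 57.2 CPM in LAP+/OC2+, 131 ± 3.94 in LAP+/OC2-, 124 ± 6.58 in LAP+ and 115 ± 12.4 in adult cells (SD, n = 4 each). Every LAP+/OC2+ library lay above every LAP+/OC2- library for 6 of 6 genes, where 26.4% of all 13818 rows tested did so. Every LAP+/OC2+ library lay above every adult library for 6 of 6, against 33.8% of all rows, and above every LAP+ library for 5 of 6, against 26.2%. For 5 of 6 genes they lay above all 12 other libraries, which 20.4% of all rows did. The rule used these libraries, so nothing is read from these counts.

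**Figure D2:**
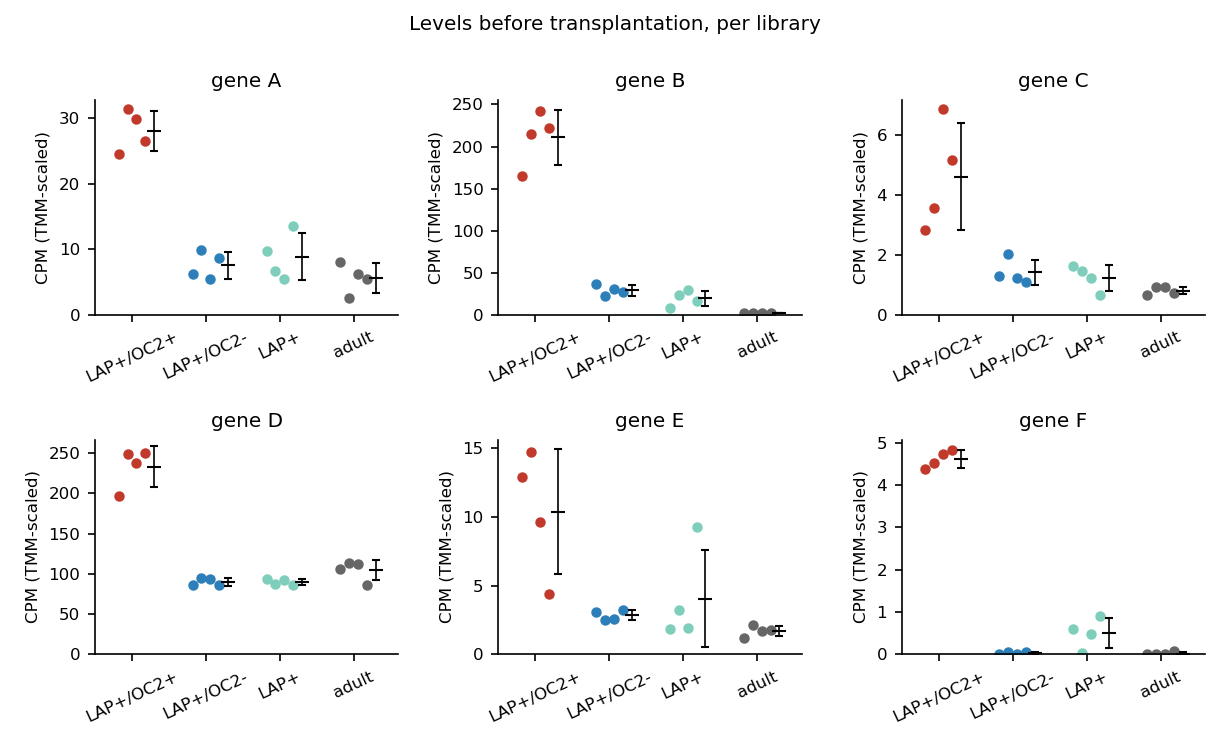
Level of each gene in CPM (TMM-scaled) in the 16 libraries before transplantation, with points for libraries and the bar for mean and SD of 4. The LAP+/OC2+ points stand above all others for 5 genes, and for gene E 1 LAP+ library at 9.26 CPM reaches among them.

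Gene D was the most abundant of the run. It had 196, 248, 238 and 249.6 CPM in LAP+/OC2+ libraries 1 to 4, and 86.5, 94.8, 93.9 and 85.7 CPM in the LAP+/OC2- libraries 1, 3, 4 and 5. It had 93.0, 87.9, 92.4 and 85.6 CPM in the LAP+ libraries and 106, 113, 112 and 86.4 CPM in the adult ones. The LAP+/OC2+ libraries stood alone and the other 3 groups overlapped. Gene D had the smallest fitted log2 difference of the run against LAP+/OC2- (1.37) and against adult cells (1.16).

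Gene B differed most between the groups among genes A to E. It had 165, 214, 242 and 222 CPM in the LAP+/OC2+ libraries, against 36.9, 22.6, 30.4 and 26.8 CPM in the LAP+/OC2- libraries. It had 8.76, 23.6, 29.8 and 16.02 CPM in LAP+ cells and 1.95, 2.35, 2.5 and 1.89 CPM in adult cells. The order was thus LAP+/OC2+, then LAP+/OC2- and LAP+, which overlap each other, then adult cells below all of them. The fitted log2 difference of LAP+/OC2+ was 2.85 against LAP+/OC2-, 3.43 against LAP+ and 6.59 against adult cells, and 1.82% of all rows had a larger one against adult cells.

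These levels changed the makeup of the run. Gene B gave 42.8% ± 2.15 of the summed CPM in LAP+/OC2+, 22.2% ± 4.30 in LAP+/OC2-, 15.5% ± 6.73 in LAP+ and 1.90% ± 0.165 in adult cells (SD, n = 4 each). Gene D gave 47.5% ± 1.78 in LAP+/OC2+, 68.8% ± 3.19 in LAP+/OC2-, 72.6% ± 5.49 in LAP+ and 91.0% ± 1.73 in adult cells. Adult hepatocytes thus had a run whose counts came almost wholly from gene D. Per kb of exon, the order in LAP+/OC2+ cells was D at 101 CPM per kb, B at 28.5, E at 14.4, A at 10.7, F at 5.51 and C at 1.45. In adult cells it was D at 45.4 CPM per kb, E at 2.36, A at 2.13, B at 0.294, C at 0.257 and F at 0.0202. Gene B thus ranked next after D in LAP+/OC2+ cells but after D, E and A in adult cells.

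Gene F had the sharpest on-off contrast, on few counts. It had 4.38, 4.51, 4.73 and 4.83 CPM in LAP+/OC2+ cells, from 17, 19, 29 and 42 counts. It had 0, 1, 0 and 1 counts in the LAP+/OC2- libraries, 12, 1, 9 and 18 in the LAP+ libraries, and 0, 0, 0 and 1 in the adult ones. The LAP+/OC2+ libraries lay close together on the TMM scale, but on plain totals they ran from 1.90 to 5.08 CPM. With 17 to 42 counts each, the narrow TMM range is no measure of their precision. The LAP+ libraries lay between, with library 2 as low as LAP+/OC2- libraries. LAP+/OC2- and adult cells were at the limit of detection. On plain library totals, gene F was 101-fold higher in LAP+/OC2+ than in LAP+/OC2- cells (107 counts against 2). It was 195-fold higher than in adult cells (107 counts against 1). With 1 or 2 counts in the lower group these folds are imprecise. They describe the libraries that chose the gene and were not tested. Gene F passed the filter on low counts only through the LAP+/OC2+ libraries, while genes A to E passed also without them. Before transplantation gene F is therefore described by its counts, and no test of it is used.

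Genes A and C had like patterns at lower levels. Gene A had 24.5, 31.3, 29.8 and 26.6 CPM in the LAP+/OC2+ libraries, against 6.19, 9.85, 5.51 and 8.64 CPM in LAP+/OC2- cells, 9.68, 6.74, 5.45 and 13.6 CPM in LAP+ and 8.02, 2.55, 6.19 and 5.54 CPM in adult cells. Gene C had 2.84, 3.56, 6.84 and 5.17 CPM in the LAP+/OC2+ libraries, against 1.31, 2.03, 1.24 and 1.09 CPM in LAP+/OC2- cells, 1.64, 1.45, 1.22 and 0.65 CPM in LAP+ and 0.67, 0.92, 0.92 and 0.74 CPM in adult cells. In both, the LAP+/OC2+ libraries lay above all others. The fitted folds of LAP+/OC2+ over LAP+/OC2-, LAP+ and adult cells were 3.71, 3.16 and 5.04 for gene A and 3.30, 3.76 and 5.71 for gene C. In gene A the 3 other groups overlapped, and in gene C LAP+/OC2- stayed above adult cells while LAP+ overlapped with both.

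Gene E was the least even. It had 12.9, 14.7, 9.61 and 4.37 CPM in LAP+/OC2+ libraries 1 to 4 and 3.09, 2.49, 2.58 and 3.26 CPM in LAP+/OC2- libraries. It had 1.84, 3.26, 1.91 and 9.26 CPM in the LAP+ libraries and 1.20, 2.16, 1.71 and 1.76 CPM in the adult ones. LAP+ library 4 stood above LAP+/OC2+ library 4, which is why gene E alone overlapped between those groups. Gene E was lowest in LAP+/OC2+ library 4, where the share of mitochondrial counts was also lowest, at 38.9%. The other 5 genes were lowest in LAP+/OC2+ library 1, where that share was highest, at 78.6%. The part of this share in the levels was not tested. On plain library totals all 6 genes kept their highest mean in LAP+/OC2+, but LAP+/OC2+ libraries lay above all 12 others for 2 of 6 genes. The matching percentage of all rows was not computed on plain totals, so nothing is read from that count. On plain totals gene D ranged from 85.0 to 263 CPM within LAP+/OC2+, against 103 to 123 CPM in LAP+/OC2-.

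The sorts outside LAP+/OC2+ were compared with adult cells to ask whether the run is higher in fetal than adult hepatocytes there too. The rule summed raw counts over all 16 libraries, these included, so the comparisons are not wholly independent of how the genes were kept. These fits share the adult libraries, and all 16 libraries share 1 estimate of spread. Of genes A to E, 2 (B and E) were higher in LAP+ than in adult cells by the edgeR quasi-likelihood test (threshold 0.05 after Benjamini-Hochberg adjustment over all rows) and 0 lower, where 31.7% of all rows were higher and 28.5% lower. The median log2 difference of genes A to E was 0.67, against 0.06 over all rows. For 1 of the 6, gene B, every LAP+ library lay above every adult library, against 29.2% of all rows.

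Gene B was the clearest, at 19.6 ± 9.14 CPM in LAP+ (SD, n = 4), against 1.89 to 2.5 CPM in the adult libraries, a log2 difference of 3.16 (SE 0.31, edgeR adjusted p = 2.3e-07). Gene F had 40 counts in LAP+ and 1 in adult libraries, a ratio of 40.0 on plain totals (exact 95% interval 6.78 to 1620). That interval covers counting error only, and LAP+ library 2 held 1 count of gene F, as adult library 4 did. Gene E averaged 4.07 ± 3.52 CPM in LAP+ and 1.71 ± 0.393 CPM in adult cells, a log2 difference of 1.25 (SE 0.47, edgeR adjusted p = 0.030). That call rested on LAP+ library 4: without it the log2 difference was 0.45 (edgeR adjusted p = 0.30). Leaving out adult library 1, 3 or 4 also ended it (0.058 to 0.084), and over all 16 alternatives the adjusted p ranged from 0.011 to 0.30.

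The remaining 3 genes did not pass the test between LAP+ and adult cells. Gene A had a log2 difference of 0.67 (SE 0.31, edgeR adjusted p = 0.073), gene C of 0.60 (SE 0.35, edgeR adjusted p = 0.15) and gene D of -0.22 (SE 0.12, edgeR adjusted p = 0.13). Gene A passed without adult library 1 (0.88, edgeR adjusted p = 0.033) or LAP+ library 3 (0.85, 0.030), and gene D was lower without adult library 4 (-0.30, 0.049) and under DESeq2 (-0.26, DESeq2 adjusted p = 0.024). Gene D was the 1 member with a value below 0, and its means were 89.7 ± 3.56 CPM in LAP+ and 104 ± 12.5 CPM in adult cells.

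In LAP+/OC2- cells 1 of genes A to E was higher than in adult cells and 0 lower, where 30.9% of all rows were higher and 28.4% lower. Their median log2 difference was 0.74, against 0.06 over all rows. Gene B averaged 29.2 ± 6.09 CPM in LAP+/OC2- cells (SD, n = 4), again against 1.89 to 2.5 CPM in the adult libraries, a log2 difference of 3.74 (SE 0.31, edgeR adjusted p = 3.8e-08), and 3.92% of all rows had a larger one. Libraries did not overlap for 3 of 6 genes (B, C and E), against 30.6% of all rows. Gene C had a log2 difference of 0.79 (SE 0.35, edgeR adjusted p = 0.058), gene E of 0.74 (SE 0.47, 0.19), gene A of 0.44 (SE 0.31, 0.24) and gene D of -0.21 (SE 0.12, 0.14). Alternatives called 3 of these: gene C in the fit that left out LAP+/OC2+ (0.80, edgeR adjusted p = 0.044), genes C and E with only the 2 groups (0.81, 0.034 and 0.75, 0.017), and gene D under DESeq2 (-0.27, 0.021). Gene F, with 2 counts in LAP+/OC2- and 1 in adult libraries, was at the limit of detection in both.

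**Figure D3:**
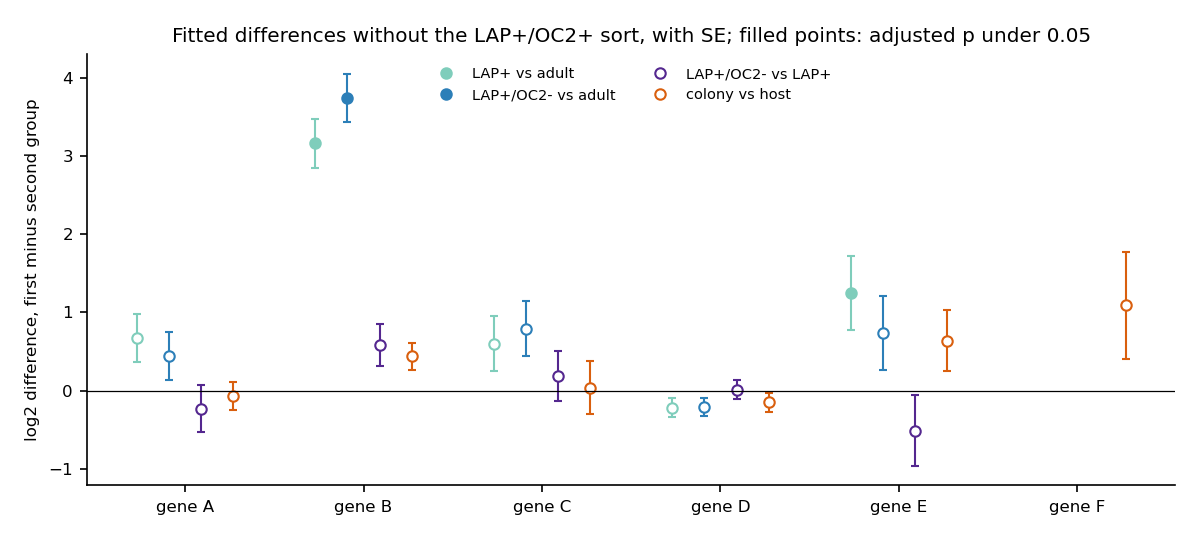
Fitted log2 difference (first minus second group, with SE) of each gene in the 4 comparisons without LAP+/OC2+, filled where the edgeR adjusted p is under 0.05. Gene B stands at 3.16 and 3.74 for LAP+ and LAP+/OC2- over adult cells, the colony points are all open, and gene F is drawn for colony against host alone because before transplantation it passed the filter only through LAP+/OC2+.

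Between the fetal sorts LAP+/OC2- and LAP+, edgeR called 0 of genes A to E in either direction. Of these, 1 (gene B) had an unadjusted edgeR p under 0.05, as did 915 of all 13818 rows. After adjustment edgeR called 0.145% of all rows lower and 0.246% higher, 20 and 34 in number. DESeq2 also called 0 of genes A to E, and 103 rows lower and 105 higher. Without LAP+ library 2 edgeR called 63 rows lower, and without LAP+ library 3 it called 34 lower and 61 higher. Gene F had 2 counts in LAP+/OC2- and 40 in LAP+ libraries, a ratio of 0.0481 on plain totals (exact 95% interval 0.00564 to 0.186, for counting error only). LAP+ library 2, with 1 count, overlapped the LAP+/OC2- libraries. Gene B had a log2 difference of 0.58 (SE 0.27, edgeR adjusted p = 0.72). The other 4 genes lay between -0.51 (gene E, SE 0.45) and 0.19 (gene C, SE 0.32), with edgeR adjusted p of 1.0.

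After transplantation, colonies were compared with the host tissue of the same animals. The summed level was 112 ± 15.8 CPM in the 5 colonies and 113 ± 15.3 CPM in the 5 host libraries (SD). Of the 6, 0 were called in either direction with edgeR and 0 with DESeq2, and edgeR called 0.0322% of all 18632 rows, 6 in number. DESeq2 called 340 rows higher and 346 lower, and edgeR without animal 246 called 856 higher and 1200 lower, with 0 of the 6 genes among them in either case. At an unadjusted p under 0.05 edgeR had 1 of the 6 genes and 3781 of all rows. The members' median log2 difference was 0.24, against 0.05 over all rows.

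Gene E was higher in the colony of all 5 animals, which 8.87% of all rows were. It had 2.83, 5.21, 4.38, 3.37 and 2.92 CPM in the colonies of animals 242, 243, 246, 248 and 249, against 2.33, 2.55, 2.67, 1.58 and 2.74 CPM in their host tissue. The 2 sets did not overlap, as in 2.25% of all rows, but the closest values were 2.83 and 2.74 CPM. The log2 difference was 0.64 (SE 0.39, edgeR adjusted p = 0.35).

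Gene B was higher in the colony of 4 of 5 animals, and 32.1% of all rows were so in at least 4. It had 20.6, 18.6, 13.9, 17.7 and 18.4 CPM in colonies, against 12.7, 13.5, 14.4, 10.2 and 15.0 CPM in host tissue, in the same order of animals. Animal 246 alone went the other way, by less than 1 CPM. The log2 difference was 0.44 (SE 0.17, edgeR adjusted p = 0.17), the smallest adjusted p of the run here. Gene B gave 16.3% ± 3.30 of the run's summed CPM in colonies and 11.6% ± 1.20 in host tissue.

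Gene F was also higher in the colony of 4 of 5 animals, with 2.36, 1.00, 1.58, 2.14 and 1.20 CPM in colonies, against 0.95, 0.14, 1.69, 0.79 and 0.80 CPM in host tissue. Its counts were 109 in colonies and 47 in host libraries. The log2 difference was 1.09 (SE 0.68, edgeR adjusted p = 0.36), and the groups overlapped through animal 246.

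Gene D was lower in the colony of most animals, and genes A and C showed no common direction. Gene D was higher in the colony of 1 of 5 animals, and the matching share of all rows was not computed. Genes A and C were higher in the colony of 2 of 5. The mean of gene D was 73.5 ± 11.5 CPM in colonies, against 81.6 ± 11.6 CPM in host libraries (SD, n = 5 each), a log2 difference of -0.15 (SE 0.12, edgeR adjusted p = 0.47). Gene A had 11.0 ± 4.10 CPM in colonies, against 11.5 ± 3.66 CPM in host libraries, and gene C 3.79 ± 1.23 CPM in colonies, against 3.64 ± 0.768 CPM in host libraries. The spread of gene A lay between animals: animal 243 had 17.3 CPM in its colony and 15.2 CPM in its host tissue, and animal 248 had 5.73 and 5.44 CPM. These misses at 5 animals do not show that colony and host levels are alike.

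**Figure D4:**
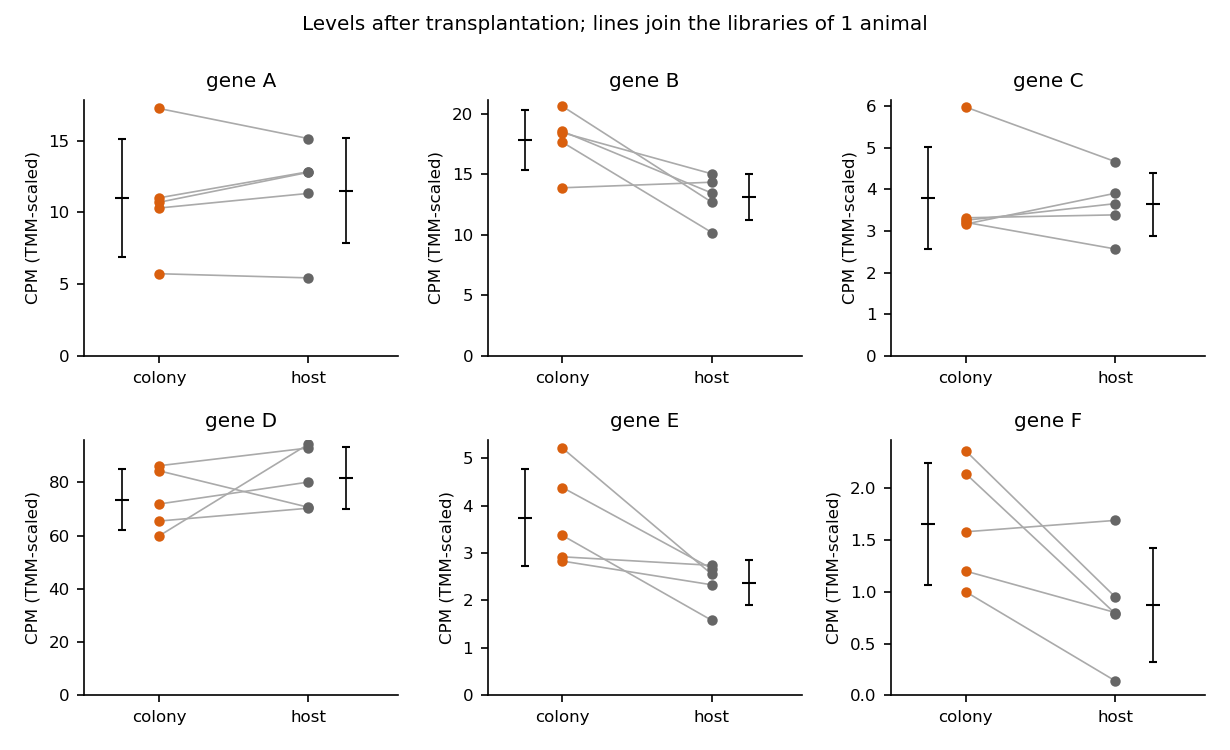
Level of each gene in CPM (TMM-scaled) in colony and host tissue, with a line joining the libraries of 1 animal and bars for mean and SD of 5. Lines fall toward the host in all 5 animals for gene E and in 4 for genes B and F. They rise toward the host in 4 for gene D, and run both ways for genes A and C.

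Over the 16 libraries before transplantation, the log2(CPM + 1) of each gene followed the mean of the other 5, with Pearson r from 0.811 (gene E) to 0.928 (gene F). The 15 pairs had a median r of 0.813. LAP+/OC2+ libraries, which chose the genes, make up much of that. Over the 12 libraries without them, the median of the 15 pairs was 0.119, with a range from -0.645 to 0.580. Gene D then went against the mean of the other genes (r = -0.717), and the other 5 had r from 0.364 to 0.540. These values describe libraries that share group, depth and preparation.

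Outside the run, 2 rows were most like the mean of the 6 genes over the 16 libraries, of 8772 compared. ENSRNOG00000004482, on chromosome 6 at 124905808 to 125027553, had a Pearson r of 0.995, with 100.1 ± 28.0 CPM in LAP+/OC2+, 3.42 ± 0.449 in LAP+/OC2-, 4.38 ± 1.90 in LAP+ and 0.616 ± 0.116 in adult cells. ENSRNOG00000017645, on chromosome 1 at 198655742 to 198658583, had an r of 0.993, with 10.91 CPM in LAP+/OC2+, 1.5 in LAP+/OC2-, 1.78 in LAP+ and 0.651 in adult cells. Each of the 6 genes had an r with the mean of the other genes. Between 9.63% (gene F) and 22.1% (gene E) of the compared rows had a higher r with the mean of all 6. The 2 means differ by the gene itself. The compared rows also had at least 10 CPM in some group, which genes C and F did not reach, so the percentages are only a rough guide.

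High levels in LAP+/OC2+ cells were not limited to the run. The nearest tested row to the left, ENSRNOG00000010423, ends 93 nt away at 12707922 and averaged 0.913 ± 0.647 CPM in LAP+/OC2+ cells, against 0.481 ± 0.334 CPM in LAP+/OC2- ones, with overlapping libraries. The nearest to the right, ENSRNOG00000009311, begins 636 nt away at 12804919. It averaged 3.26 ± 0.730 CPM in LAP+/OC2+ cells, against 1.72 ± 0.339 CPM in LAP+/OC2- ones, and its libraries did not overlap. The fitted log2 differences of the 2 rows were 0.79 and 0.91, below the 1.37 to 7.14 of the 6 genes. The row overlapping gene A had 165 ± 31.6 CPM in LAP+/OC2+ cells, against 11.1 ± 1.23 CPM in LAP+/OC2- ones, a log2 difference of 3.89.

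Within 500000 nt on either side, 44 other rows were tested, and in 16 of them (36.4%) every LAP+/OC2+ library lay above every LAP+/OC2- library. On chromosome 7 as a whole 27.1% of 894 tested rows did so. Of the 44, 14 had every LAP+/OC2+ library below. Their fitted log2 differences ran from -4.60 to 7.23, with a median of 0.20. Rows to the left had a median of 0.64 and rows to the right of -0.61.

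**Figure D5:**
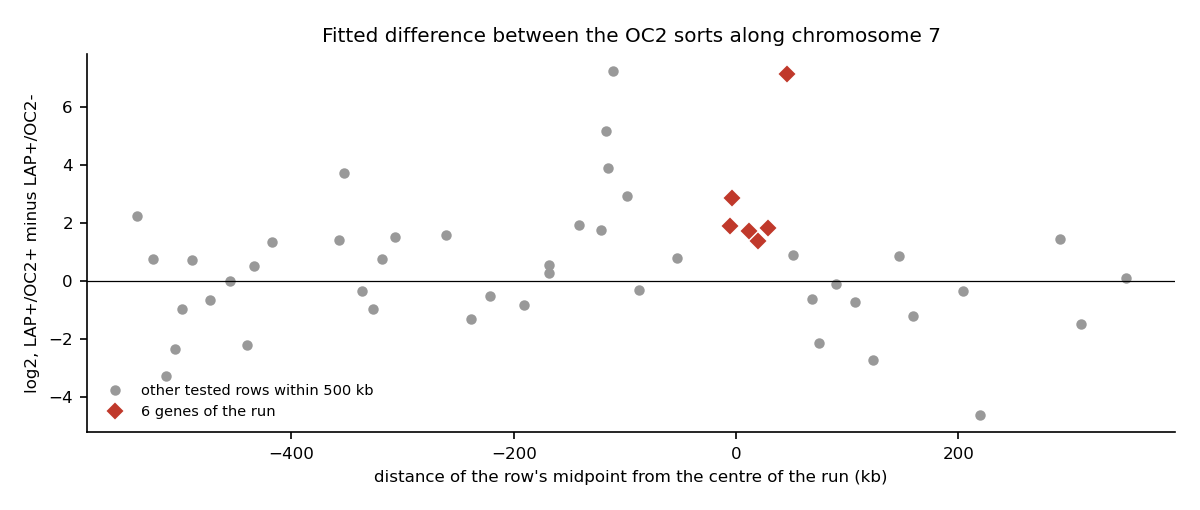
Fitted log2 difference of LAP+/OC2+ minus LAP+/OC2- for the 6 genes (diamonds) and the other tested rows within 500000 nt (circles), by distance of the row's midpoint from the centre of the run in kb. The 6 diamonds lie at 1.37 or above, and the circles spread from -4.60 to 7.23 with several high ones on the left.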

How the data were processed

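RNA was measured in 26 libraries, and their groups were taken from the sample titles. The deposited values are raw counts per row with exon coordinates and length, per the file headers. The submitters' processing notes name Trimmomatic 0.36, STAR 2.5.2b, Subread 1.5.2 with featureCounts, and bcl2fastq 2.17. No source used here gives the build, the annotation release or the strand setting. Per the labels' protocols, sorted cells used the NEBNext Ultra kit and captured tissue a SMARTer Pico total RNA kit that marks strand.

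The test was that of edgeR 4.0.16 under R 4.3.3 (TMM, filterByExpr, robust quasi-likelihood F test, Benjamini-Hochberg over all rows, threshold 0.05): the 16 libraries before transplantation in 1 fit, and the 10 after it with the animal as a block. The labels give host and colony the same animals. Their deviations from group means correlated between -0.252 and 0.376 within animals. Alternatives were RLE, no filter or a stricter filter (1 CPM), DESeq2 1.42.0, nuclear rows only, fewer groups, the block reversed, and leaving out each library or animal. CPM per kb divides by exon length. Likeness used rows with at least 10 CPM in some group. Exact intervals for count ratios condition on the summed counts at 95% and use plain library totals.

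The genes and lists were chosen with earlier results of these data known. All 6 genes are named, with the nearest tested row on each side and the 2 rows of highest likeness. Rows overlapping gene A, and those given by position alone at the end, were picked after their values were seen. All 44 replicate pairs differed by more than sampling noise (chi-square divided by degrees of freedom 4.91 to 255). Where nothing says that libraries came from separate animals, p-values measure only the spread between these libraries.

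On simulated counts with 200 of the rows changed, a log2 change of 1 was called in 49.3% of cases for LAP+ against adult, 43.3% for LAP+/OC2- against adult, 49.3% for LAP+/OC2- against LAP+ (13818 rows each) and 47.8% for colony against host (18632 rows). The changed rows averaged above 1 CPM, and all other rows were equal between groups. In the data, 31.7% of all rows were called higher and 28.5% lower in LAP+ than in adult cells. The simulated rates therefore do not give the chance of a call in the fetal-adult fits.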

Additional observations from a re-analysis of the deposited data

Results flagged for a closer look

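In 36 sets of 4 or 5 libraries, 1 per gene and group, 2 held a library far from the others by Dixon's criterion, a rate near the 1 in 20 that chance gives. Gene C had 5.98 CPM in the colony of animal 243, against 3.17 to 3.32 CPM in the other 4 colonies, and that animal's host tissue was also the highest of its group for gene C, at 4.67 CPM. Gene F had 0.0676 CPM in adult library 4, which is 1 count, against 0 in the other 3 adult libraries.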

How the results depend on the processing

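Gene F is left out of the counts of calls before transplantation, since it passed the filter there only through the LAP+/OC2+ libraries. Between LAP+ and adult cells the count of genes A to E called in either direction was 2, with 3 under DESeq2, where gene D was added. With only the 2 groups in the fit it was 1, gene B. Gene B alone was also called under the replicate block, without adult library 3 and without LAP+ library 4. Gene A joined B and E without LAP+ library 3 and replaced E without adult library 1. Gene D replaced E without adult library 4. For LAP+/OC2- against adult cells it was 1, with 2 under DESeq2, 2 without the LAP+/OC2+ libraries and 3 with only the 2 groups (1 to 1 leaving out 1 library). For LAP+/OC2- against LAP+ it was 0, and also 0 under the replicate block, without LAP+/OC2+ libraries and with only the 2 groups. Colony against host stayed at 0 in every alternative run. LAP+/OC2+ libraries lay above all 12 others for 5 genes, against 20.4% of all rows. On plain totals they did so for 2 genes. The percentage of all rows was not computed there, so nothing is read from the change from 5 to 2. Of the values of single genes, 308 kept direction and side of the threshold, 18 changed sign, 14 lost a call and 8 gained one. That tally includes gene F, of which no test before transplantation is used. Among genes A to E every lost call was of gene E between LAP+ and adult cells, and the rest were of gene F. None of the sign changes was in a called value. They were, for LAP+/OC2- against adult, gene F at -0.20 under the block (-0.04 to 2.0 leaving out 1 library). For LAP+/OC2- against LAP+ they were gene D at -0.01 with RLE, no filter or DESeq2 and -0.0031 with 2 groups, and, leaving out 1 library, gene A (-0.40 to 0.05), C (-0.03 to 0.35), D (-0.01 to 0.03) and E (-0.75 to 0.28). For colony against host gene C was at -0.01 without a filter (-0.08 to 0.12). Their cause was not tested. The labels do not say whether equal replicate numbers before transplantation share animals. Deviations from group means at equal numbers had r from -0.428 to 0.076, which cannot settle it. Colony and host libraries of the same animal, known to be paired, had r from -0.252 to 0.376. The block also ended the call of gene E between LAP+ and adult cells (edgeR adjusted p = 0.074). Over all rows, LAP+/OC2- against LAP+ called 34 higher and 20 lower, and 13 or 12 lower without LAP+/OC2+ or with only the 2 groups. Colony against host called 4 higher and 2 lower, 325 and 426 without a filter, 0 and 0 without the block, and 0 to 69 higher and 0 to 13 lower without any animal other than 246.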

Other observations

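Among the 44 other rows tested within 500000 nt, the 2 with the largest fitted differences between the OC2 sorts lay to the left of the run. The row at 12643516 to 12646960, 61055 nt from the run, had a fitted log2 difference of 7.23 for LAP+/OC2+ over LAP+/OC2-, and the row at 12638322 to 12640232, 67783 nt away, one of 5.16. Both lie inside the span of the row that overlaps gene A. They were picked after their values were seen and are given without a test.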
